A study of Rattus norvegicus with 4 samples.

Results

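Cytochrome P450 enzymes of the Cyp2a, Cyp2b, Cyp2d and Cyp2e subfamilies were examined in the livers of 4 untreated rats. The list holds 9 genes, namely Cyp2a1, Cyp2a2, Cyp2b1, Cyp2b2, Cyp2b3, Cyp2d1, Cyp2d2, Cyp2d4 and Cyp2e1. A probe set, which is the group of short oligonucleotides that reports 1 transcript on an Affymetrix array, was taken where the platform annotation gave it exactly 1 gene symbol and that symbol was on the list. This rule used no measured value. It found 7 of the 15923 probe sets, for 6 of the 9 genes, with Cyp2d4 represented by 2. The other 3 genes (Cyp2b1, Cyp2b2 and Cyp2d1) were reported only by probe sets that carry a second gene's symbol too. Of such shared probe sets there were 3, annotated to Cyp2a1 and Cyp2a2, to Cyp2b1 and Cyp2b2, and to Cyp2d1 and Cyp2d5. They are described apart and assigned to no single gene.

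All animals belonged to 1 group, male Sprague-Dawley rats aged 10 to 12 weeks that received no treatment. Each liver was measured on its own array, so a difference between rats cannot be told apart from a difference between arrays. With 1 group there is no contrast to test, and the values below describe 4 animals. Values are log2 signals, so a difference of 1 unit is a doubling, and errors are SDs over n = 4 rats. A signal depends on the probes as well as on the transcript, so signals of different probe sets are not relative amounts.

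P450s of these subfamilies are heme enzymes of the hepatocyte's endoplasmic reticulum that insert oxygen into drugs, steroids and solvents, with electrons from P450 reductase (Por) and cytochrome b5 (Cyb5a). In rat liver Cyp2a1 and Cyp2a2 hydroxylate testosterone, the first mostly in females and the second in adult males. Cyp2b1 and Cyp2b2 are the classic phenobarbital-induced enzymes, switched on through the constitutive androstane receptor (Nr1i3), while Cyp2b3 is expressed without an inducer. Cyp2d enzymes oxidise basic drugs such as debrisoquine. Cyp2e1 oxidises ethanol, acetone and small solvents and is found mainly in hepatocytes around the central vein.

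The sequences shown first are the promoters of 2 of the 3 gene pairs that the array reported with a shared probe set, together with Cyp2b3 and Cyp2e1, which had probe sets of their own. Each window runs from 250 bases before to 50 bases after the annotated start, 5' to 3', from RefSeq on the rat assembly GRCr8, and 8 of the 9 listed genes had one. The pair of Cyp2a1 and Cyp2a2 is not compared, since no window of Cyp2a2 was used here. The deposited values carry no genome build. Capitals mark matches to the motifs that were searched on both strands. The first was the core promoter element spelled TATAAA. The second was TTGCATAA, of the kind bound by C/EBP factors. The third was the nuclear receptor half-site AGGTCA. No matches overlapped. The windows lie at chr1:90645869-90646168 (plus strand), chr1:90722031-90722330 (plus strand), chr1:90780242-90780541 (plus strand), chr7:115793381-115793680 (minus strand), chr7:115784438-115784737 (minus strand) and chr1:205269717-205270016 (plus strand), in the order printed.
Cyp2b1: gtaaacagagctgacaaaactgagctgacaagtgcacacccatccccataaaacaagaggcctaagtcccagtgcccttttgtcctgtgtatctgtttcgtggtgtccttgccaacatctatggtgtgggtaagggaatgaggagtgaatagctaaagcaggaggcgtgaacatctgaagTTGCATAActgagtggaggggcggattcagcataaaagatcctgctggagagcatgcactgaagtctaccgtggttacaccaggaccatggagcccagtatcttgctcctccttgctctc
Cyp2b2: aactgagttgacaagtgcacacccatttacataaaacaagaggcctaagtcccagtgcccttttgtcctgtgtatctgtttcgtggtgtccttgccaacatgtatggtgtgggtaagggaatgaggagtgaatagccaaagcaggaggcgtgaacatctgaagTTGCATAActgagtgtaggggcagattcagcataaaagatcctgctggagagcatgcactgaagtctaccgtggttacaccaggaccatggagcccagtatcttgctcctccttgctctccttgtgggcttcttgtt
Cyp2b3: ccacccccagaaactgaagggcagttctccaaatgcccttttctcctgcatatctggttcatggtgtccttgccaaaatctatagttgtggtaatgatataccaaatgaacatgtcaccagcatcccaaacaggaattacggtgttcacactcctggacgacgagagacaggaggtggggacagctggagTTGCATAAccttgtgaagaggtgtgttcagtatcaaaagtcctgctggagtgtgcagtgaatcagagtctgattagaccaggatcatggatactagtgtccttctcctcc
Cyp2d1: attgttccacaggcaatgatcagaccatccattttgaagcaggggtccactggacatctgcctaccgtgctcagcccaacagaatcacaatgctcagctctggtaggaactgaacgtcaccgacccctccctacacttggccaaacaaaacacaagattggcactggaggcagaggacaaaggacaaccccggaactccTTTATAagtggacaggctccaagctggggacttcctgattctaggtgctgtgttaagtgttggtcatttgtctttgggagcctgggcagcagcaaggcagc
Cyp2d5: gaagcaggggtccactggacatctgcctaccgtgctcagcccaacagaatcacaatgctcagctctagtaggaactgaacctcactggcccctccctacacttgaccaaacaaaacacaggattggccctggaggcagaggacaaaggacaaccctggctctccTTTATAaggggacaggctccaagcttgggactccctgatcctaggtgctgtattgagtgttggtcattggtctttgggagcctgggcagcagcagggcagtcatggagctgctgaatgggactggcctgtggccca
Cyp2e1: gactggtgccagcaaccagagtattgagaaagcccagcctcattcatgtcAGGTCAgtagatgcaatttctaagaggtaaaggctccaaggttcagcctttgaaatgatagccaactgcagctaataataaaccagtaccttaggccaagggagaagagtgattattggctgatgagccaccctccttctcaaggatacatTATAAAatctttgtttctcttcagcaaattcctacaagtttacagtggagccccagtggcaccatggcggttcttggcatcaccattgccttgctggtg

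The Cyp2b1 and Cyp2b2 windows were identical at 97.2% of 283 aligned positions, and those of Cyp2d1 and Cyp2d5 at 92.9% of 266. Cyp2b3 matched Cyp2b1 at 64.3% of 311 positions and Cyp2b2 at 62.1% of 317. These 2 gene pairs were close copies, while Cyp2b3 differed from both other Cyp2b genes at more positions. In RefSeq's gene order on chromosome 1, Cyp2b3 directly follows Cyp2b2, and Cyp2a2 directly follows Cyp2a1. On chromosome 7, Cyp2d4 and Cyp2d1 lie on either side of Cyp2d5.

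TTGCATAA occurred in the windows of Cyp2b1, Cyp2b2 and Cyp2b3 and in no other of the 8, against 0.863% of 33469 promoters of the same length. This motif was added after the sequences had been read. TATAAA was found in the Cyp2a1 and Cyp2e1 windows and, on the opposite strand, in that of Cyp2d1, against 14.2% of all promoters. Of the 8 windows, that of Cyp2e1 also held AGGTCA, found in 16.2% of all promoters. These are matches of letters, which do not show that a factor bound.

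**Figure D1:**
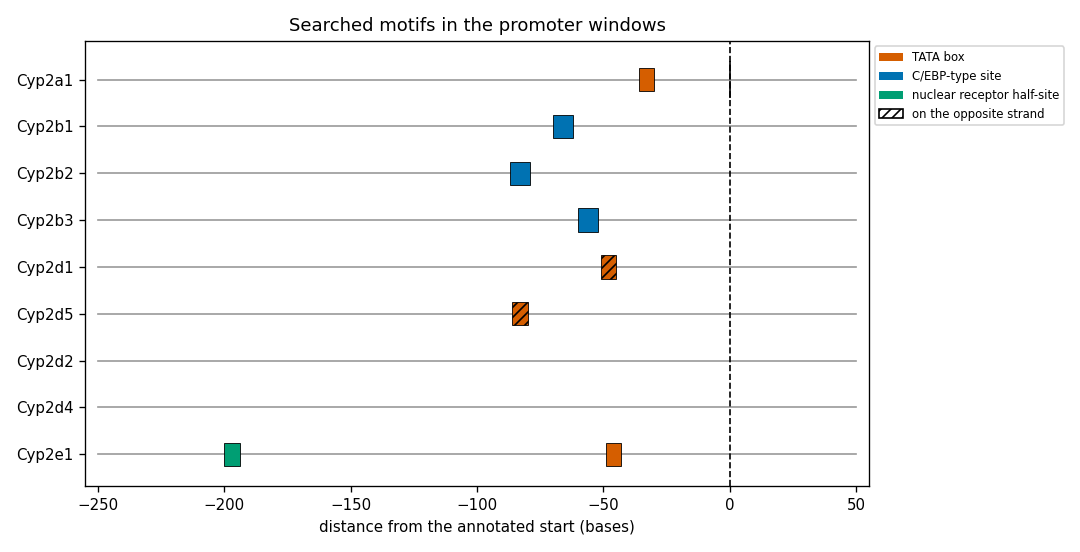
Matches to the searched motifs along the promoter windows of 8 listed genes and Cyp2d5, with the distance from the annotated start in bases on the horizontal axis. TTGCATAA (blue) begins at -87, -70 and -60 in Cyp2b2, Cyp2b1 and Cyp2b3, and the windows of Cyp2d2 and Cyp2d4 hold no match.

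Signals of these P450s were read against a background level of 9.25. This is the 95th percentile of the means over 77 probe sets, for 57 genes typical of brain, muscle, testis or eye. Among all 12789 probe sets with 1 symbol, 14.2% lay above it. Of the 6 genes, 5 had a probe set above the level (Cyp2a2, Cyp2b3, Cyp2d2, Cyp2d4 and Cyp2e1). Cyp2a1, at a mean of 9.25, lay just under it (a difference of -0.0042), so its call depends on the setting. The level itself rests on Myh1, a muscle myosin whose 5 probe sets had means of 7.91 to 11.49. Without Myh1 it was 8.30, all 6 genes were above it, and so were 43.0% of all probe sets.

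Cyp2a1, the female-predominant testosterone hydroxylase, had log2 signals of 8.97, 9.46, 9.23 and 9.34 in rats 1 to 4, or 9.25 ± 0.21 (SD, n = 4). Rat 1 was lowest and rat 2 highest, a 1.41-fold difference in signal. Cyp2a2, its male-predominant neighbour, had 11.12, 11.52, 11.44 and 11.43, or 11.38 ± 0.18. Here too rat 1 was lowest and rat 2 highest, by 1.32-fold, and the remaining rats lay close to rat 2. The probe set annotated to both Cyp2a1 and Cyp2a2 had 11.30, 11.72, 11.72 and 11.63, or 11.59 ± 0.20, again lowest in rat 1.

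The Cyp2a probe sets moved evenly between rats. Cyp2a1 minus Cyp2a2 on the same array was -2.15, -2.06, -2.20 and -2.09 units in rats 1 to 4. The SD of this difference was 0.065, against SDs of 0.21 and 0.18 for the signals themselves. For Cyp2a2 against the shared Cyp2a1 and Cyp2a2 probe set the SD of the difference was 0.043. Cross-hybridisation between Cyp2a1 and Cyp2a2 was not tested, since probe sequences were not analysed here.

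Cyp2b3, the Cyp2b enzyme expressed without an inducer, had signals of 13.08, 12.68, 13.10 and 12.93, or 12.95 ± 0.19. Rat 2 was lowest and rat 3 highest, 1.33-fold apart. The probe set shared by Cyp2b1 and Cyp2b2, the phenobarbital-inducible pair, had 9.46, 8.72, 9.23 and 8.76, or 9.04 ± 0.36. Rats 1 and 3 were high and rats 2 and 4 low, and its 1.67-fold range was the widest of the 10 probe sets described. Its mean lay 0.21 below the background level and above the level without Myh1. Of the 500 probe sets nearest to it in mean signal, 98% had a smaller SD, with a median SD of 0.032. Cyp2b3 and the Cyp2b1 and Cyp2b2 probe set were both below their means in rat 2 (by deviations of -0.27 and -0.32). In rat 4 Cyp2b3 lay near its mean (-0.02), while the shared probe set was at -0.29. The difference between them varied with an SD of 0.23.

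Cyp2d2, a liver Cyp2d enzyme, had signals of 12.93, 12.80, 13.07 and 13.03, or 12.96 ± 0.12. Rat 2 was lowest and rat 3 highest, 1.21-fold apart. For Cyp2d4, which is also known from brain, the brighter of 2 probe sets had 9.58, 9.45, 9.83 and 9.81, or 9.67 ± 0.19, with the same lowest and highest rats as Cyp2d2. The dimmer Cyp2d4 probe set had 8.71, 8.43, 8.32 and 8.21, or 8.42 ± 0.22, below the background level. It was highest in rat 1 and lowest in rat 4, unlike the brighter one.

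The Cyp2d4 probe sets differed in pattern. The brighter minus the dimmer was 0.87, 1.02, 1.52 and 1.60 units in rats 1 to 4, with an SD of 0.36. For Cyp2d2 against the brighter one the SD of the difference was 0.071. Since the dimmer one lies below the background level, this difference in pattern is given as a description only, and nothing is concluded from it. The probe set shared by Cyp2d1 and Cyp2d5 had a signal of 11.64 on all 4 arrays, equal to within 0.001. Such flat probe sets made up 43.5% of all 15923 on the arrays and 20.7% of those with 1 symbol above background. Their zero spread does not measure the animals, and so says nothing of how Cyp2d1 varied.

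Cyp2e1, the ethanol and acetone oxidase, had signals of 13.40, 13.28, 13.41 and 13.50, or 13.40 ± 0.09. Rat 2 was lowest and rat 4 highest, 1.16-fold apart, the narrowest range of the 7 probe sets with 1 symbol. Cyp2e1 minus Cyp2d2 had an SD of 0.067, against SDs of 0.09 and 0.12 for the signals themselves. Both varied little, so a small SD of the difference alone does not show that they moved together. The SD of Cyp2e1 exceeded that of 60.8% of the 500 probe sets nearest in mean signal, or 54.4% where flat probe sets were left out.

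**Figure D2:**
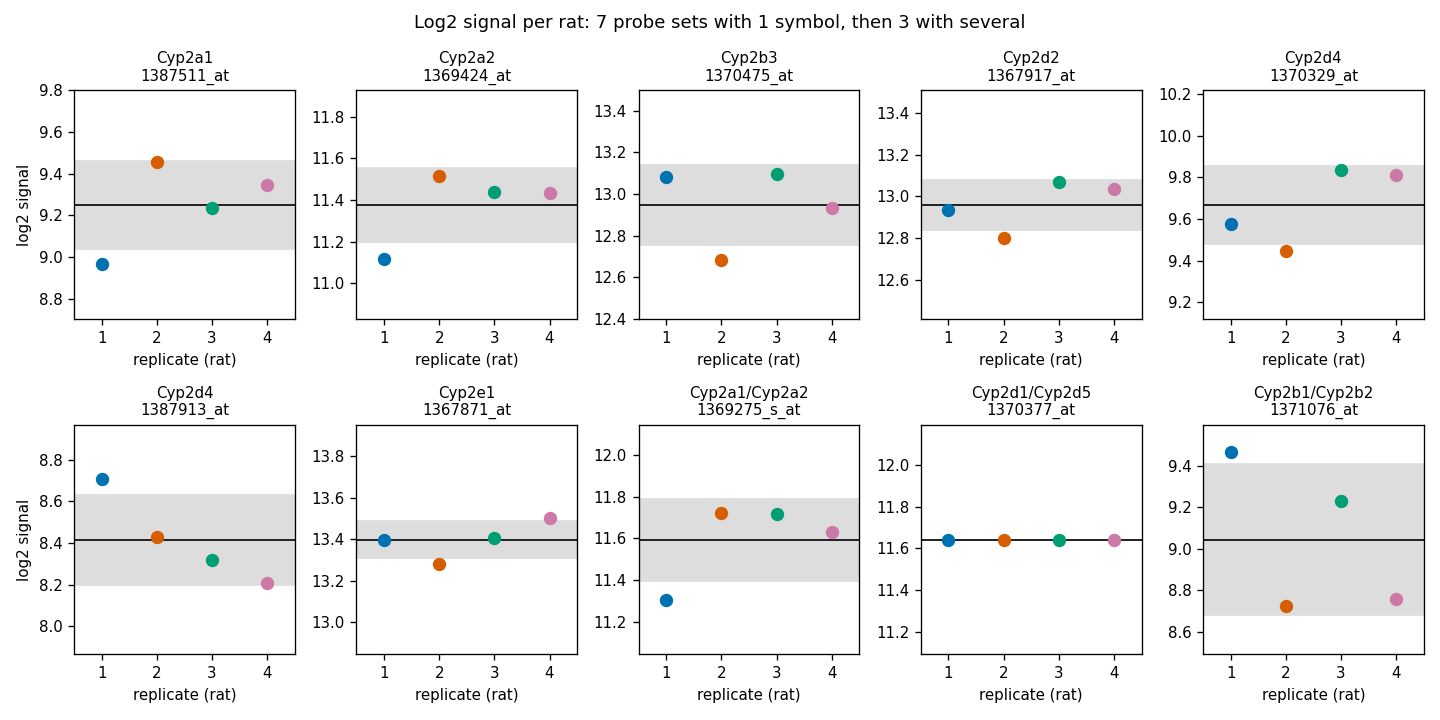
Log2 signal (vertical axis) in each of the 4 rats (horizontal axis) for the 7 probe sets with 1 symbol and the 3 with several, each panel spanning the same number of log2 units around its mean (line) with the SD (grey band). The Cyp2a probe sets are lowest in rat 1, Cyp2b3, Cyp2d2, the brighter Cyp2d4 and Cyp2e1 are lowest in rat 2, and the Cyp2d1 and Cyp2d5 probe set is flat at 11.64.

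Differences between rats were modest in absolute terms. A range of at least 0.5 log2 units was reached by 1 of the 7 probe sets, against 2.22% of the 12789 with 1 symbol, 3.9% of those not flat and 9.46% of the 1818 above background. That probe set was the dimmer one of Cyp2d4, with a range of 0.502. Without rat 1, without rat 4, or with each array centred on its median, the count was 0. Just below the threshold was Cyp2a1, with a range of 0.491. At a threshold of 0.3 units, 5 of the 7 passed, against 5.48% of probe sets with 1 symbol, 9.63% of those not flat and 21.0% of those above background. Cyp2d2 and Cyp2e1 were the ones that did not. A range of 1 unit was reached by 0 of the 7, against 0.469% of probe sets with 1 symbol, 0.824% of those not flat and 2.04% of those above background.

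Compared with probe sets of similar brightness, most of these P450s varied more. Of the 500 probe sets nearest in mean signal, those with a smaller SD made up 95.4% for Cyp2a1, 84.2% for Cyp2a2, 86.0% for Cyp2b3 and 72.4% for Cyp2d2. For Cyp2d4 they made up 88.0% at the brighter probe set and 99% at the dimmer one. With flat probe sets left out of the comparison, these shares ran from 68.6% for Cyp2d2 to 97.2% for the dimmer Cyp2d4 probe set. These percentiles describe single probe sets and carry no test.

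**Figure D3:**
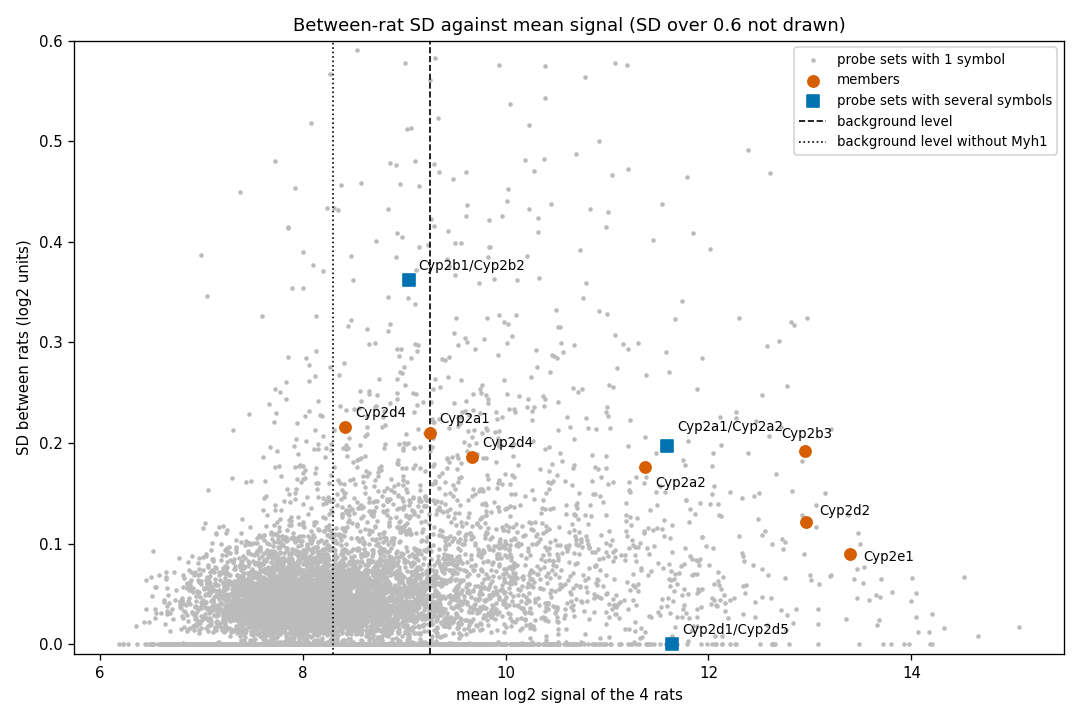
Between-rat SD (vertical axis, log2 units) against mean log2 signal (horizontal axis) for all 12789 probe sets with 1 symbol (grey), the 7 of the listed P450s (orange) and the 3 with several symbols (blue), with the background level of 9.25 (dashed) and that without Myh1 of 8.30 (dotted). The Cyp2b1 and Cyp2b2 probe set stands highest of the P450s at an SD of 0.36, and Cyp2e1 is the lowest of the 7 at 0.09.

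Rat 2 was the lowest animal for 4 of the 7 probe sets, namely Cyp2b3, Cyp2d2, the brighter Cyp2d4 and Cyp2e1. Of the others, 2 were lowest in rat 1, 0 in rat 3 and 1 in rat 4. Over all probe sets with 1 symbol that were not flat, 26.4%, 25.4%, 22.8% and 25.5% were lowest in rats 1 to 4. Above background these shares were 31.0%, 34.6%, 15.3% and 19.2%, so rat 2 was the commonest lowest animal there too. The highest rat was rat 3 for 3 of the 7, rat 2 for 2, and rats 1 and 4 for 1 each, against 36.7%, 17.0%, 23.5% and 22.8% above background. The median deviation from the mean of the rats over the 7 was -0.03, -0.11, 0.06 and 0.08 in rats 1 to 4. Over the 1441 probe sets above background that were not flat it was -0.01, -0.02, 0.02 and 0.01. Cyp2a1 and Cyp2a2 went the other way and were highest in rat 2, so no single rat was low for every one of these P450s.

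Markers of cell types differed between the same rats. Of the markers listed for Kupffer cells, the liver's macrophages, 7 of 12 had a probe set. Above background were 4 of these 7, against 14.2% of all probe sets with 1 symbol. All 4 (C1qa, C1qb, C1qc and Clec4f) were highest in rat 2, with a median deviation of 0.19 there, against 17.0% highest in rat 2 among all probe sets above background. C1qb had a range of only 0.10 units. Below the level, Cd68 was highest in rat 3 (9.34, against 9.25 in rat 2), and Csf1r and Aif1 were flat. Clec4f, a lectin of Kupffer cells, had 10.38, 10.82, 10.59 and 10.28. The hepatocyte markers, of which 9 of 10 had a probe set and all 9 were above background, had a median deviation of 0.02 in rat 2. Bile duct markers had 0 of 4 above background, lymphocyte and neutrophil markers 0 of 10, and endothelial markers 3 of 6. Of the stellate cell and fibroblast markers 1 of 10 was above it, the collagen Col3a1, with 10.80, 11.15, 10.23 and 11.15, lowest in rat 3. Below the level, both probe sets of Col1a1 and of Col1a2 and those of Dcn and Lum were lowest in rat 3 too. In a whole piece of liver, fewer cells of a type and less RNA per cell cannot be told apart. The part of these cells in the P450 values was not tested.

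Rat 1, in which the Cyp2a probe sets were lowest, also had the largest excess of signal at the 3' end over the 5' end of beta-actin, at 0.85 units, while rats 2 to 4 had 0.63, 0.54 and 0.66. The Gapdh probe sets went the other way, with 0.48 in rat 1 and 0.52, 0.54 and 0.54 in rats 2 to 4. The part of this in the Cyp2a values was not tested.

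Position along the liver lobule was followed with marker lists. Of 6 pericentral markers above background, 5 were lowest in rat 2, against 34.6% of all probe sets above background. Among the 5 were Cyp2e1 itself, Cyp1a2 (12.26 against 12.72 to 12.96 in the others), Glul, the glutamine synthetase (10.54 against 10.56 to 11.07 at its brightest probe set), and Cyp7a1, which starts bile acid synthesis (9.77 against 9.94 to 10.32). Of the 3 Glul probe sets 1 was lowest in rat 1 instead (10.01, against 10.08 in rat 2), so that marker's place depends on the probe set. Of the 6, the one not lowest in rat 2 was Oat, an ornithine aminotransferase, with 9.76, 10.39, 11.08 and 10.32, lowest in rat 1. Cyp2a1 is also on the pericentral list, just under the level, and went the other way. It was highest in rat 2, at 9.46 against 8.97 to 9.34. Of others under the level, Axin2 and Lgr5 were lowest in rat 2, with ranges of only 0.18 and 0.069 units. The Tbx3 probe set that was not flat went the other way, lowest in rat 1 and above its mean in rat 2. The remaining Tbx3 probe sets and those of Slc1a2 were flat. The median deviation of the 6 above background in rat 2 was -0.17. Of 8 periportal markers above background and not flat, 3 were lowest in rat 2, with a median deviation of -0.03. The urea cycle enzyme Ass1 was one of them, at 12.54 in rat 2 against 12.60 to 13.19. Whether the pieces of liver differed in zones was not tested.

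**Figure D4:**
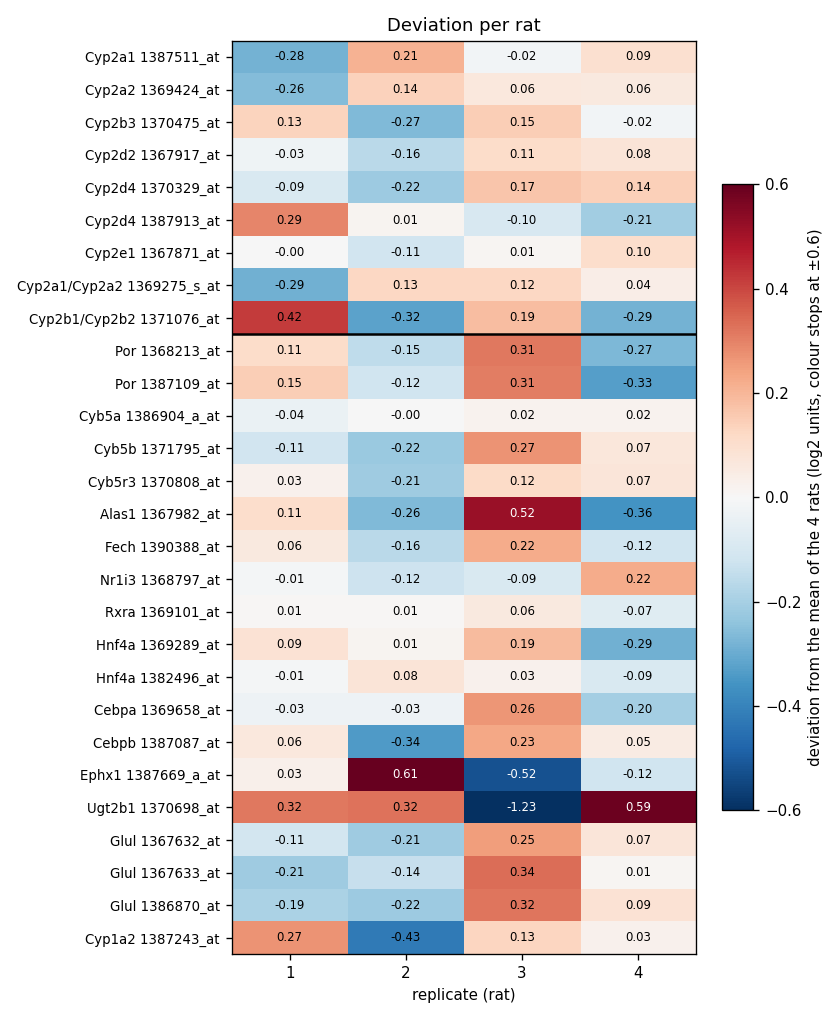
Deviation of each probe set from its mean over the 4 rats (colour and printed value, log2 units) for the P450 probe sets that were not flat (above the line) and for redox partners, heme synthesis, receptors, inducible genes and pericentral markers (below it). Rat 2 is below the mean for Cyp2b3, Cyp2d2, Cyp2e1 and the brighter Cyp2d4, and above it for the Cyp2a probe sets.

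The enzymes' electron donors were all detected, with 6 of 6 genes above background, against 14.2% of all probe sets with 1 symbol. Por, the reductase that every microsomal P450 depends on, had 9.52, 9.25, 9.68 and 9.04 at its brighter probe set, or 9.38 ± 0.28. Its dimmer probe set, with 9.04, 8.78, 9.24 and 8.66, put the rats in the same order. Cyb5a, cytochrome b5, hardly differed between rats, at 12.45 ± 0.03. Cyb5b, the mitochondrial cytochrome b5, had 9.33, 9.22, 9.71 and 9.51. Cyb5r3, the reductase of cytochrome b5, had 10.96, 10.72, 11.05 and 11.00 and was lowest in rat 2.

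Genes of heme synthesis came next. Alas1, which catalyses the rate-limiting step of heme synthesis and is itself inducible by phenobarbital, had 9.67, 9.30, 10.08 and 9.20, or 9.56 ± 0.40. Rats 1 and 3 were above rats 2 and 4, as they were for both Por probe sets and for the Cyp2b1 and Cyp2b2 probe set. This split was seen in 25.1% of the 1441 probe sets above background that were not flat, so it is common in these arrays, and it was looked at after the values were seen. Fech, the ferrochelatase that inserts the iron, had 9.34, 9.12, 9.50 and 9.16 and showed the same split. Alad did so only narrowly, with 11.11, 11.04, 11.12 and 11.10, a range of 0.079. With Alad counted, 3 of 3 heme genes above background and not flat had the split. The blood marker Hbb, a hemoglobin chain, also split the rats this way, with 11.91, 11.27, 11.64 and 11.00, and its part in these values was not tested. Of 12 genes of heme synthesis and breakdown, 8 had a probe set, 4 were above background and 1 (Alas1) had a range of at least 0.5 units. Among all probe sets with 1 symbol 14.2% were above background, and 9.46% of those had such a range.

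Genes inducible through Nr1i3 and the pregnane X receptor (Nr1i2) had the split in 4 of 11 cases, if Por and Alas1 are counted. The other two were the transporter Slco1a4 (10.44, 10.36, 10.69 and 10.23) and Cyp3a23-3a1 (11.75, 11.64, 12.03 and 11.66). Of 23 listed genes, 17 had a probe set and 11 were above background, against 14.2% of all probe sets with 1 symbol. A range of at least 0.5 units was reached by 5 of these 11, against 9.46% of all probe sets above background. The 5 were Akr7a3, Alas1, Ephx1, Por and Ugt2b1. Ephx1, the microsomal epoxide hydrolase, had 12.64, 13.21, 12.08 and 12.49, highest in rat 2. Ugt2b1, a glucuronosyltransferase, had 10.57, 10.58, 9.02 and 10.84, lowest in rat 3. Akr7a3, the aflatoxin aldehyde reductase, had 11.15, 10.84, 10.32 and 10.72, also lowest in rat 3. In rat 3 the list was divided. Alas1, Por, Slco1a4 and Cyp3a23-3a1, 4 of the 11 genes, were highest there, against 36.7% of all probe sets above background that were not flat. Of the 11 genes, 6 were lowest in rat 3 and 4 in rat 4, against 15.3% and 19.2% of the same probe sets. The fibroblast markers Col3a1, Col1a1, Col1a2, Dcn and Lum were also lowest in rat 3, while Acta2 and Pdgfrb of the same list were not. The part of such cells in these values was not tested.

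Receptors and factors that act on these P450s mostly lay below the background level, as most probe sets on the arrays did. Of 16 regulators with a probe set, 3 were above background (Hnf4a, Cebpb and Ghr), against 14.2% of all probe sets with 1 symbol. Above the level without Myh1 were 10 of the 16, against 43.0%. Nr1i3 had 8.60, 8.49, 8.52 and 8.83, or 8.61 ± 0.16, highest in rat 4, in which the Cyp2b1 and Cyp2b2 probe set was low. Hnf4a, a factor of hepatocyte identity, had 9.75, 9.68, 9.86 and 9.38 at its brighter probe set. Cebpa had 8.99 ± 0.19 and Rxra, the partner of both receptors, 9.21 ± 0.06. Nr1i2 was flat at 9.06.

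Ethanol-handling genes were set beside Cyp2e1. Of 10 genes, all 10 had a probe set and 7 were above background, against 14.2% of all probe sets with 1 symbol. Of these 7, 2 had a range of at least 0.5 units, against 9.46% of all probe sets above background. Adh1c, the alcohol dehydrogenase to which the older name Adh1 was matched, had 12.89, 12.56, 13.28 and 13.17, and Acss2, the acetyl-CoA synthetase, had 9.76, 8.93, 9.79 and 9.52. Both were lowest in rat 2, and they are among the 5 of 7 genes above background that were, Cyp2e1 included, against 34.6% of all probe sets above background that were not flat.

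Genes listed as differing between the sexes gave a signal from both lists. All 6 of the male-predominant genes with a probe set were above background, Cyp2a2 among them. Of 8 genes listed as female-predominant, 3 were (Cyp2c7, Cyp2c12 and Sult1e1), with Cyp2a1 at the level. Among all probe sets with 1 symbol, 14.2% were above background. The place of Sult1e1 on that list is uncertain, and its mean was 12.27 in these males. Cyp2c12 had 9.89, 9.09, 10.10 and 9.35, with rats 1 and 3 above rats 2 and 4. All rats were male, so no difference between the sexes was measured.

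Among 24 other Cyp2 genes listed, 17 had a probe set with 1 symbol. Above background were 10 of them, against 14.2% of all such probe sets. Of the 10, 2 had a range of at least 0.5 units, Cyp2c12 and Cyp2j3, against 9.46% of all probe sets above background. Cyp2j3, an arachidonic acid oxidase, had 9.15, 9.37, 9.66 and 9.88. Cyp2d3, a close relative of the Cyp2d members, differed little, at 11.81 ± 0.03. Cyp2a3, known from nasal and lung tissue, Cyp2b12 and Cyp2b21 had means of 7.71, 7.23 and 7.51, below both background levels.

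**Figure D5:**
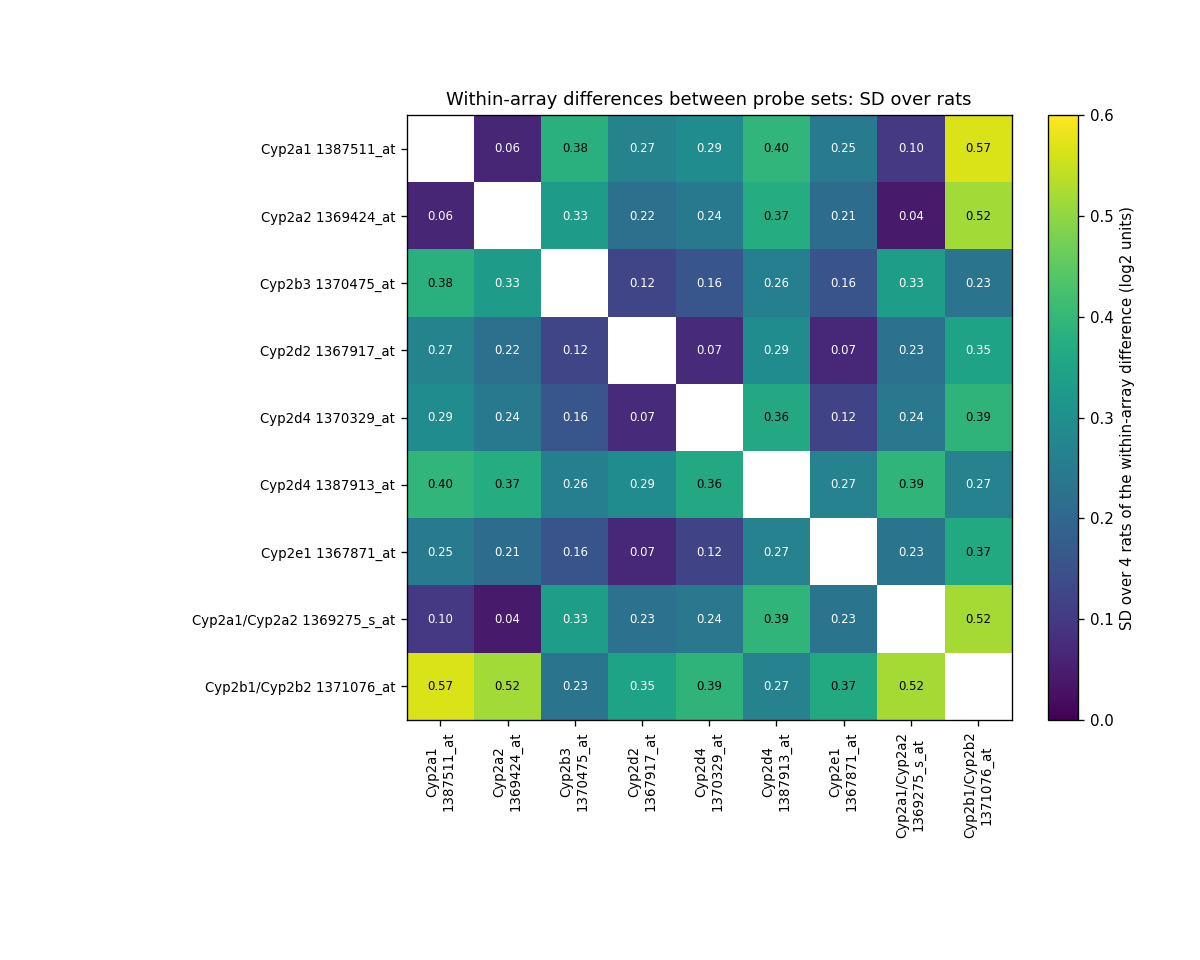
SD over the 4 rats of the difference between 2 probe sets on the same array (colour and printed value, log2 units) for each pair of the 9 P450 probe sets that were not flat. Small values, such as 0.065 for Cyp2a1 and Cyp2a2 and 0.067 for Cyp2d2 and Cyp2e1, arise where a pair moved alike or where both varied little. The Cyp2b1 and Cyp2b2 probe set, which had the largest SD of its own, has the largest value, 0.57, against Cyp2a1.

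The genes most like a member across the rats were sought among 1436 other probe sets above background that were not flat, by the root mean square difference of the deviations over 4 rats. The search was run for the 3 member probe sets with the widest range. Nearest to Cyp2a1 were Edem1 (0.030), Sdf2l1 (0.041) and Serpinf2 (0.050). For Cyp2b3 they were Smim14 (0.040), Acaa2 (0.041) and Lcat (0.044), and 91 probe sets lay within 0.1 of it. The dimmer Cyp2d4 probe set was nearest to Abcc2 (0.042), Marchf6 (0.044) and Lonp2 (0.060). The Cyp2b1 and Cyp2b2 probe set, added after its values were seen, was nearest to Cth (0.080), Gclm (0.090) and Id2 (0.094). Within 0.1 of that profile lay 3 candidates. There were 34 for Cyp2a1 and 17 for the dimmer Cyp2d4 probe set. The profiles differ in width, with an SD of 0.36 for Cyp2b1 and Cyp2b2 and 0.19 for Cyp2b3. The counts within a fixed distance are therefore not comparable. These are descriptions of 4 rats.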

How the data were processed

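Liver RNA of 4 rats was measured on Affymetrix arrays, 1 array a rat. The chip type is RAE230A per the file headers of the instrument settings, and RAE230-2 per the labels' protocol. The authors deposited log2 signals of 15923 probe sets (5.98 to 15.07). The submitters' processing notes name GCRMA and RMA beside affy 1.12.2 and R 2.4.1. The method behind the values is not given in the sources used here. Array medians were 8.11 on all 4 arrays after rounding. The arrays shared a scan day and a lot, which leaves no batch to fit. The instrument settings hold no measurement.

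Means, SDs and ranges were computed with Python 3.11.15, numpy 2.4.6 and pandas 2.3.3, and promoters were aligned with Biopython 1.88. No p-value was computed, since 1 group allows no test. Of 12789 probe sets with 1 symbol, 12754 were matched by gene number to RefSeq's GRCr8 table, and 312 had several symbols. A gene's brightest probe set stood for it in list counts. Flat means a range under 0.001. Named were all members, up to 4 genes above background with the widest range in a list, fixed receptors and donors, and 3 genes alike for each of 3 probe sets. Cyp2d3, Cyp2a3, Cyp2b12, Cyp2b21, Slco1a4, Cyp3a23-3a1 and the split of rats 1 and 3 from rats 2 and 4 were picked after values were seen. The members and lists were chosen with earlier results of these data known. Protein identity between members was planned and not analysed here, and promoter identity was added. A planned regulator is not reported here. The computations were tested on simulated data. Alternatives covered scaling, background level, thresholds, probe set choice and leaving out each rat. The number of arrays limits the precision.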

Additional observations from a re-analysis of the deposited data

Results flagged for a closer look

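Dixon's criterion was applied as a flag to 61 probe sets, and 5 held a rat that stood well apart. Chance gives about 5% of independent sets picked without regard to their values. The 61 were P450 probe sets and named genes, many chosen for a wide range in these data, and flat ones cannot be flagged. The 5 are therefore not set against that rate. None was a probe set of the listed P450s. Ugt2b1 was at 9.02 in rat 3, against 10.57 to 10.84 in the others. Cyp3a2 was at 12.91 in rat 4, and Sult1e1 at 11.92 in rat 2. Cps1 was at 12.67 in rat 3 and Apoa1 at 12.34 in rat 1.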

How the results depend on the processing

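Of 76 alternative values, the 42 of mean signals all moved by less than 1 SD. Centring leaves a mean unchanged, and leaving out 1 of 4 rats cannot move it by 1 SD. Quantile normalization was the only alternative that could have moved a mean signal so far. Of 34 counts and deviations, 5 moved by more than the tolerance, which was 1.5 times for a count and 1 SD for a deviation. Each of the 5 was the count of P450 probe sets with a range of at least 0.5 units, 1 of 7 in the setting reported. It was 0 with each array centred on its median, 5 at a threshold of 0.3 and 0 at a threshold of 1 unit, and between 0 and 1 when each rat was left out. The dimmer Cyp2d4 probe set lies so close to the threshold, at 0.502, that shifts of at most 0.0025 from centring remove it. Genes above background numbered 4 at the 98th percentile and also with each gene's median probe set, and 6 at the 90th percentile, without Myh1, with quantile normalization and without rat 1, against 5. The median deviation of the 7 probe sets in rat 2 was -0.114, and -0.072 with quantile normalization and -0.080 without rat 4. Rat 2 was lowest for 4 probe sets in each alternative that kept it. Without rat 2 no such count can be given. No paired analysis was possible because there is 1 group. Signals below the background level do not show that a transcript was absent.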
